A study of Mus musculus with 4 samples.

Results

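Macrophages take up, bind, store and export lipid through a small set of genes. The 10 genes described here were chosen by symbol for those roles, out of 32285 genes in the expression tables, and each of the 10 had a row in both libraries. They are Lpl and Cd36 (capture and uptake), Fabp4 and Fabp5 (binding of fatty acids in the cell), Plin2 (the lipid droplet coat), Trem2, Gpnmb and Lgals3 (sensing and the lipid-associated macrophage state), and Abca1 and Abcg1 (cholesterol export). The cells were CD45-positive cells of peritoneal lavage fluid from knockout (KO) and wild-type (WT) mice. Mice of both genotypes were on a high-fat diet for 3 months, begun at 4 weeks of age, so no group on another diet is compared here. The labels name the KO with no driver limited to a cell type. Each genotype had 1 expression library made with 10x Genomics droplets. The sources used here do not say how many mice went into a library.

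In tissue macrophages, lipoprotein lipase (Lpl) splits triglycerides of lipoproteins and the scavenger receptor Cd36 takes up the fatty acids and oxidised lipoproteins, which fatty acid binding proteins carry onward to droplets coated by perilipins. TREM2 is a surface receptor for lipids that signals through TYROBP, and in obese fat tissue it marks lipid-associated macrophages, which also express Gpnmb, Lgals3, Cd9 and Spp1. The nuclear receptors PPAR and LXR sense fatty acids and oxysterols and drive many of these genes, among them the exporters Abca1 and Abcg1. The peritoneal cavity holds GATA6-dependent large macrophages, smaller monocyte-derived macrophages and dendritic cells, beside many lymphocytes.

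The KO library held 22516 barcodes and 103953298 unique molecular identifiers (UMIs), and the WT library 10087 barcodes and 81817635 UMIs. After filters, 18285 KO and 9224 WT barcodes remained, with medians of 2951 and 6040 UMIs, so depth per barcode differed along with genotype. Large macrophages were few, 78 KO and 33 WT barcodes, with 581530 and 490278 UMIs in all. The small macrophage class had 267 KO and 56 WT barcodes, dendritic cells 227 and 65, and lymphocytes 17116 and 8633. Levels are given in CPM, which is the gene's share of all UMIs of that class in that library. Ratios are KO over WT with exact 95% conditional binomial intervals, and levels carry exact Poisson ones; both reflect only the error of counting. Since each genotype has a single library, no test could be made, and genotype, library and depth cannot be told apart.

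The classes were checked against their markers. Prg4 was at 5934 CPM in KO and 7094 CPM in WT large macrophages, and Gata6, their defining transcription factor, at 144 CPM in KO and 147 CPM in WT. Cd209a was at 1408 CPM in KO and 1391 CPM in WT dendritic cells. C1qa was at 1706 CPM in KO and 924 CPM in WT barcodes of the small macrophage class, but a C1qa UMI was seen in 42.3% of its KO and 30.4% of its WT barcodes. C1qa does not separate this class from large macrophages, where it was at 3183 CPM in KO and 3008 CPM in WT. The 13 small macrophage markers summed to 17932 CPM in KO and 18553 CPM in WT large macrophages. In the small macrophage class they summed to 11562 CPM in KO and 7566 CPM in WT. The largest cluster of the small macrophage class (153 KO and 47 WT barcodes) scored highest on monocyte markers and was led by Ccl6, F13a1 and Chil3. The class is therefore called small macrophages and monocytes here and its clusters are also given apart. Adipocyte markers, the 6 genes Adipoq, Cfd, Plin1, Cidec, Retn and Lep, were at 0 UMIs in the macrophages of both libraries. At this depth that does not show that fat cell transcripts were absent. Adipoq had 8 KO and 7 WT UMIs in the larger lymphocyte class, and Retn had 1 UMI in dendritic cells of each library. Lpl, Cd36 and Fabp4 are also fat cell genes. Of 293 barcode sequences found in both libraries, 4 KO and 3 WT barcodes were macrophages or dendritic cells.

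Promoter sequences are shown for the 4 genes with a table entry that the results below turn on, Cd36, Plin2, Trem2 and Lgals3. They come from RefSeq (build GRCm38.p6), cover 250 bases before and 50 after the start, and run 5′ to 3′ on the strand of the gene. Capitals mark matches, on either strand, to AGGTCA (the hexamer read by nuclear receptors such as PPAR and LXR), CACGTG (the E-box that MITF and TFE factors read), CATGTG, GAGGAAGT (the core read by PU.1), TGANTCA (AP-1), GGGCGG (the GC box) or TATAAA. No match printed here overlaps another.

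Cd36 promoter, chr5:17835847-17836146, - strand: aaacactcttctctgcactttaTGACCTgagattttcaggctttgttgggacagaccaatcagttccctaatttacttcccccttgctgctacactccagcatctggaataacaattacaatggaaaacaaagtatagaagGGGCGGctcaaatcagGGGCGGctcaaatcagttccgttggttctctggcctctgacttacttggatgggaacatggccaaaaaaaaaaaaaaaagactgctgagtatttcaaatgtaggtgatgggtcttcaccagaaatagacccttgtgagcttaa

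Plin2 promoter, chr4:86670010-86670309, - strand: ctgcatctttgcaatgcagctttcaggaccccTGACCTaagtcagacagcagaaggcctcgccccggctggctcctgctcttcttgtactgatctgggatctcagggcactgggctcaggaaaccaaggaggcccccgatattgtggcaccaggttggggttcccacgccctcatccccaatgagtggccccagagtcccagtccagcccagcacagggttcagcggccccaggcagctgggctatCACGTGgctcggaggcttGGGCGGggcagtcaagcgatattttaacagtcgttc

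Trem2 promoter, chr17:48346151-48346450, + strand: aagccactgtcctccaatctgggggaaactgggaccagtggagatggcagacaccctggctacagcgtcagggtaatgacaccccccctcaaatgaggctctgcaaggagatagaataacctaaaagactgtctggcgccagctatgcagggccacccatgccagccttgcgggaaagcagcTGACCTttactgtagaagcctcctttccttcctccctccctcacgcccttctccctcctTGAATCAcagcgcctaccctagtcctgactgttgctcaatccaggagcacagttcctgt

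Lgals3 promoter, chr14:47373610-47373909, + strand: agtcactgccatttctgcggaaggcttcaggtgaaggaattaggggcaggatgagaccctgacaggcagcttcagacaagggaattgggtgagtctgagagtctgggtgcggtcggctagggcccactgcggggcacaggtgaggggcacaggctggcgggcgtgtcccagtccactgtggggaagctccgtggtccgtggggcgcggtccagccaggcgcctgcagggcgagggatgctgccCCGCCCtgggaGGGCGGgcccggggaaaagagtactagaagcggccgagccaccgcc

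AGGTCA was found in 3 of these promoters. In each of the 3 it was a single hexamer (a half-site) on the opposite strand, printed as TGACCT. The leftmost base of the match lay at position -228 in Cd36, -218 in Plin2 and -68 in Trem2, counted from 0 at the annotated start. Of 32851 mouse promoters of the same length, 16.3% held AGGTCA. Trem2 also held TGANTCA at -9 (7.81% of all promoters) and Plin2 CACGTG at -4 (7.15% of all promoters). Lgals3 held GGGCGG on opposite strands at -7 and 4, beside 35.7% of all promoters, and had the highest GC content of the 4, 67.0%, against 43.0% in Cd36, the lowest. Abca1 and Gpnmb also had entries. The Abca1 promoter held CACGTG at -147, GGGCGG at -163 and -97, and TATAAA at -29 (13.6% of all promoters), and that of Gpnmb held TGANTCA at 8. Lpl, Fabp4, Fabp5 and Abcg1 were named only. A match is a description of the letters and was not set against binding data. CATGTG (14.2% of all promoters) and GAGGAAGT (3.20%) matched none of the 6.

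**Figure D1:**
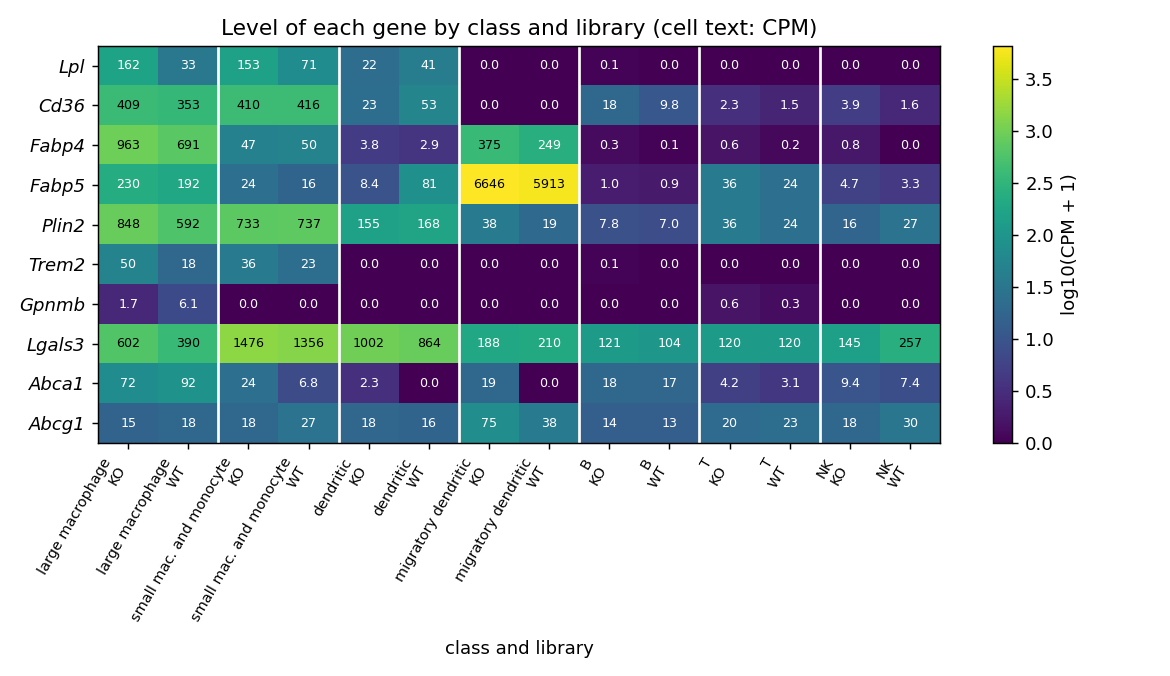
Level of each of the 10 genes (rows) in each class and library (columns, KO left of WT), as CPM in the cell text and as log10(CPM + 1) in colour. Fabp4 was brightest in large macrophages and Fabp5 in migratory dendritic cells, and Trem2 was above 1 CPM only in the macrophage columns.

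The order of the classes by Lpl level differed between the libraries. Lpl was at 162 CPM in KO large macrophages (94 UMIs, interval 131 to 198) and 153 CPM in KO small macrophages and monocytes (193 UMIs), which overlapped, and at 22.1 CPM in KO dendritic cells. In the WT library the order was another: 70.5 CPM in small macrophages and monocytes (31 UMIs), 41.3 CPM in dendritic cells and 32.6 CPM in large macrophages (16 UMIs, interval 18.7 to 53.0), neighbours that overlapped. Lymphocytes had 5 KO and 0 WT Lpl UMIs.

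In large macrophages Lpl was therefore higher in KO than in WT, with a ratio of 4.95 (2.90 to 9.02). A Lpl UMI was seen in 34 of 78 KO barcodes and 11 of 33 WT barcodes, and 3 or more UMIs in 15 KO barcodes and 1 WT barcode. The ratio differed with how barcodes were weighted. With every barcode counted alike the means were 195 CPM in KO and 122 CPM in WT, a ratio of 1.60, and with classes taken from marker UMIs in each barcode (95 KO and 23 WT) the ratio was 1.87. After each barcode was thinned to 1000 UMIs the levels were 130 CPM in KO and 156 CPM in WT, a ratio of 0.831 (0.259 to 3.10), and a UMI was seen in 10.4% of KO barcodes (8 of 77) and 12.5% of WT barcodes (4 of 32). KO barcodes with a Lpl UMI had a median of 7735 UMIs and those without one 6500, whereas WT barcodes had medians of 10804 and 14920 in the same order. The thinned share in lymphocytes, which should lack the gene, was 0.0249% in KO and 0 of 8432 in WT.

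Other transcripts moved with the large macrophage result. The 6 B-cell markers summed to 332 CPM in KO and 1069 CPM in WT large macrophages, and a heavy-chain contig was found for 7.69% of KO and 24.2% of WT barcodes. The 7 monocyte markers summed to 939 CPM in KO and 498 CPM in WT, with Chil3 at 347 CPM in KO and 2.04 CPM in WT. The 6 markers of dividing cells summed to 15.5 CPM in KO and 451 CPM in WT. Their part in the ratios was not tested. Without barcodes that held B-cell transcripts or a heavy chain the Lpl ratio was 3.98 (2.12 to 8.27), and without barcodes that held 3 or more UMIs of dividing-cell markers (77 KO and 30 WT left) it was 4.63 (2.63 to 8.80).

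In small macrophages and monocytes, Lpl was at 153 CPM in KO and 70.5 CPM in WT, a ratio of 2.17 (1.48 to 3.27). The 31 WT UMIs lay in 11 barcodes, of which 1 held 10 and 5 held 77.4%. The 193 KO UMIs lay in 64 barcodes, of which 5 held 32.1%. Clusters of the class went opposite ways. In the monocyte-scored cluster led by Ccl6 and Chil3, Lpl was at 160 CPM in KO (123 UMIs) and 27.0 CPM in WT (10 UMIs), a ratio of 5.91 (3.11 to 12.6). In the cluster led by Retnla, C1qb and Lyve1 (83 KO and 8 WT barcodes), it was at 128 CPM in KO (54 UMIs) and 308 CPM in WT (21 UMIs), a ratio of 0.416 (0.247 to 0.724). Another, shallow cluster was nearly all KO (31 barcodes against 1 WT barcode, KO median 2065 UMIs) and had Lpl among its leading genes, at 223 CPM in KO (16 UMIs) and 0 UMIs in WT. A cluster that is mostly of 1 library may be that library and not a cell type. With the 2 clusters that had at least 5 barcodes in each library weighted alike the class ratio was 0.859. Chil3, itself a monocyte marker, was at 487 CPM in KO and 21.6 CPM in WT within the monocyte-scored cluster. In the class as a whole the 12 large macrophage markers summed to 2513 CPM in KO and 1310 CPM in WT, with 259 Prg4 UMIs in KO and 0 in WT. The 6 B-cell markers summed to 248 CPM in KO and 34.1 CPM in WT, with B-cell transcripts or a heavy chain in 21 KO and 0 WT barcodes, and the 6 neutrophil markers to 22.1 CPM in KO and 93.3 CPM in WT. Their part in the ratios of this class was not tested.

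**Figure D2:**
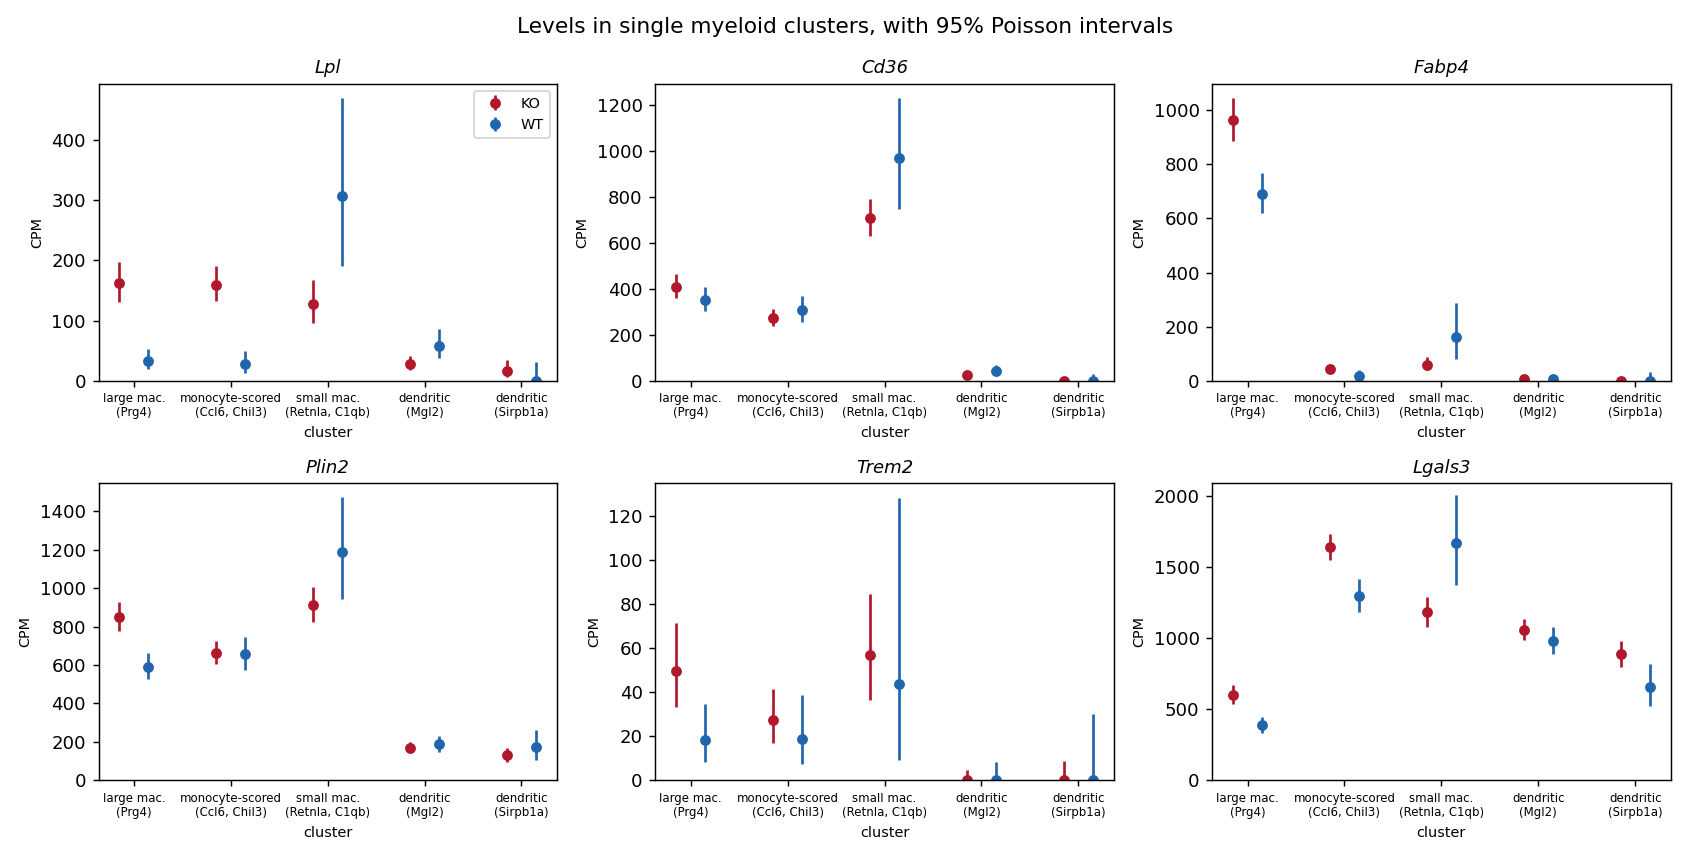
Level in CPM (vertical axis, from 0) of 6 of the genes in single myeloid clusters, KO in red left of WT in blue, with exact 95% Poisson intervals. Lpl was higher in KO in the large macrophage and monocyte-scored clusters and lower in KO in the cluster led by Retnla and C1qb, which rests on 8 WT barcodes. The other myeloid clusters, which had 10 or fewer WT barcodes, and the unnamed clusters are not drawn.

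In dendritic cells Lpl went the other way, at 22.1 CPM in KO (29 UMIs in 18 barcodes) and 41.3 CPM in WT (28 UMIs in 15 barcodes), a ratio of 0.534 (0.307 to 0.932). The cluster led by Cd209a and Mgl2 held most of them, with 27.4 CPM in KO and 58.2 CPM in WT. After thinning, a Lpl UMI was seen in 0.893% of KO (2 of 224) and 9.23% of WT dendritic barcodes (6 of 65). Over the alternatives the ratio ran from 0.145 to 0.783, and it was no longer past 1.5-fold at Leiden resolution 0.5 (0.678), with each library clustered on its own (0.671) or with marker UMIs (0.783).

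Other transcripts differed in the dendritic class too. Lyz2, a gene of macrophages and monocytes, was at 2084 CPM in KO and 3507 CPM in WT dendritic cells. Per 1000 Lyz2 UMIs there were 10.6 Lpl UMIs in KO and 11.8 in WT. For Cd36 these were 10.95 in KO and 15.1 in WT, and for Fabp5 4.02 in KO and 23.1 in WT. Large macrophages held 3.07 Lpl, 7.78 Cd36 and 4.38 Fabp5 UMIs per 1000 Lyz2 UMIs in KO, and 0.620, 6.70 and 3.64 in WT. Small macrophages and monocytes held 5.48, 14.7 and 0.852 in KO, and 2.45, 14.4 and 0.552 in WT. The 6 B-cell markers summed to 136 CPM in KO and 22.1 CPM in WT, and the 8 T-cell markers to 22.1 CPM in KO and 61.9 CPM in WT. C1qa had 11 UMIs in KO and 0 in WT, and Prg4 0 in both. Their part in the dendritic ratios was not tested.

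Cd36, the scavenger receptor, had ratios near 1 in macrophages, with intervals that spanned 1. It was at 409 CPM in KO and 353 CPM in WT large macrophages, a ratio of 1.16 (0.950 to 1.42). It was at 410 CPM in KO and 416 CPM in WT small macrophages and monocytes, a ratio of 0.984 (0.830 to 1.17). These 4 levels lay close together, and the cluster led by Retnla and C1qb had the highest ones, 706 CPM in KO and 967 CPM in WT. Cd36 was 17.9-fold higher in large macrophages than in dendritic cells of the KO library (12.2 to 27.2), and 6.65-fold in the WT library (4.62 to 9.80). In dendritic cells it was at 22.8 CPM in KO (30 UMIs) and 53.1 CPM in WT (36 UMIs), a ratio of 0.430 (0.256 to 0.718). That ratio was 0.871 with each library clustered on its own and 0.699 with clusters weighted alike, neither past 1.5-fold, and 0.145 after thinning. The dendritic cluster led by Clec9a, a marker of cross-presenting dendritic cells, was its highest among them, with 113 CPM in KO and 154 CPM in WT from 13 and 10 barcodes.

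Fabp4, a fatty acid carrier of macrophages and fat cells, had its highest level in large macrophages. It was at 963 CPM in KO (560 UMIs) and 691 CPM in WT (339 UMIs) large macrophages, a ratio of 1.39 (1.21 to 1.60). Its level there was 20.6-fold that of small macrophages and monocytes in the KO library (15.8 to 27.5) and 13.8-fold in the WT library (8.98 to 22.3). The genotype difference turned with the weighting: with barcodes counted alike the means were 971 CPM in KO and 1055 CPM in WT, and with no doublet removal (159 KO and 32 WT barcodes) the ratio was 0.812. Fabp4 was at 46.7 CPM in KO and 50.04 CPM in WT small macrophages and monocytes, and dendritic cells held 5 KO and 2 WT UMIs. The small migratory dendritic class came second, at 375 CPM in KO (20 UMIs) and 249 CPM in WT (13 UMIs). Of these UMIs, 1 KO barcode held 11 and 1 WT barcode held 9. A Fabp4 UMI was seen in 4 of 9 KO and 3 of 5 WT barcodes of that class. Its markers differed too, with Fscn1 at 3492 CPM in KO and 861 CPM in WT. The B-cell gene Cd79a was at 582 CPM in KO and 0 UMIs in WT there.

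Fabp5, the epidermal-type fatty acid carrier, was highest outside the 4 classes named above. In migratory dendritic cells, 9 KO and 5 WT barcodes in a cluster whose leading genes included Fscn1 and Apol7c and, although the 10 genes were kept out of the clustering, Fabp5 itself, it was at 6646 CPM in KO (354 UMIs) and 5913 CPM in WT (309 UMIs), a ratio of 1.12 (0.962 to 1.31). Every one of those barcodes held a Fabp5 UMI. Large macrophages had 230 CPM in KO (134 UMIs) and 192 CPM in WT (94 UMIs), a ratio of 1.202 (0.916 to 1.58). In their WT library 1 barcode held 35 of these UMIs and 5 held 70.2%. In their KO library 1 barcode held 17 and 5 held 39.6%. The 6 migratory dendritic markers summed to 65.3 CPM in KO and 116 CPM in WT large macrophages. Their part in this ratio was not tested. Dendritic cells had 8.37 CPM in KO (11 UMIs) and 81.1 CPM in WT (55 UMIs in 13 barcodes), a ratio of 0.103 (0.0487 to 0.199). In WT, 5 barcodes held 81.8% of those 55 UMIs. When dendritic cells were taken instead by marker UMIs in each barcode (266 KO and 86 WT), the levels were 35.9 CPM in KO and 31.5 CPM in WT, a ratio of 1.14 (0.725 to 1.82), so this difference depended on which barcodes were counted.

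Plin2, the droplet coat protein that follows the amount of stored lipid, was high in macrophages of both libraries. Large macrophages had 848 CPM in KO (493 UMIs) and 592 CPM in WT (290 UMIs), a ratio of 1.43 (1.24 to 1.66), under the 1.5-fold limit used for counts. After thinning to 1000 UMIs, a Plin2 UMI was seen in 62.3% of KO barcodes (48 of 77, 50.6 to 73.1) and 34.4% of WT barcodes (11 of 32, 18.6 to 53.2). Over all alternatives the ratio ran from 1.15 to 2.02. It was at 733 CPM in KO and 737 CPM in WT small macrophages and monocytes, a ratio of 0.994 (0.875 to 1.13). Dendritic cells had 155 CPM in KO and 168 CPM in WT, a ratio of 0.923 (0.731 to 1.17).

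**Figure D3:**
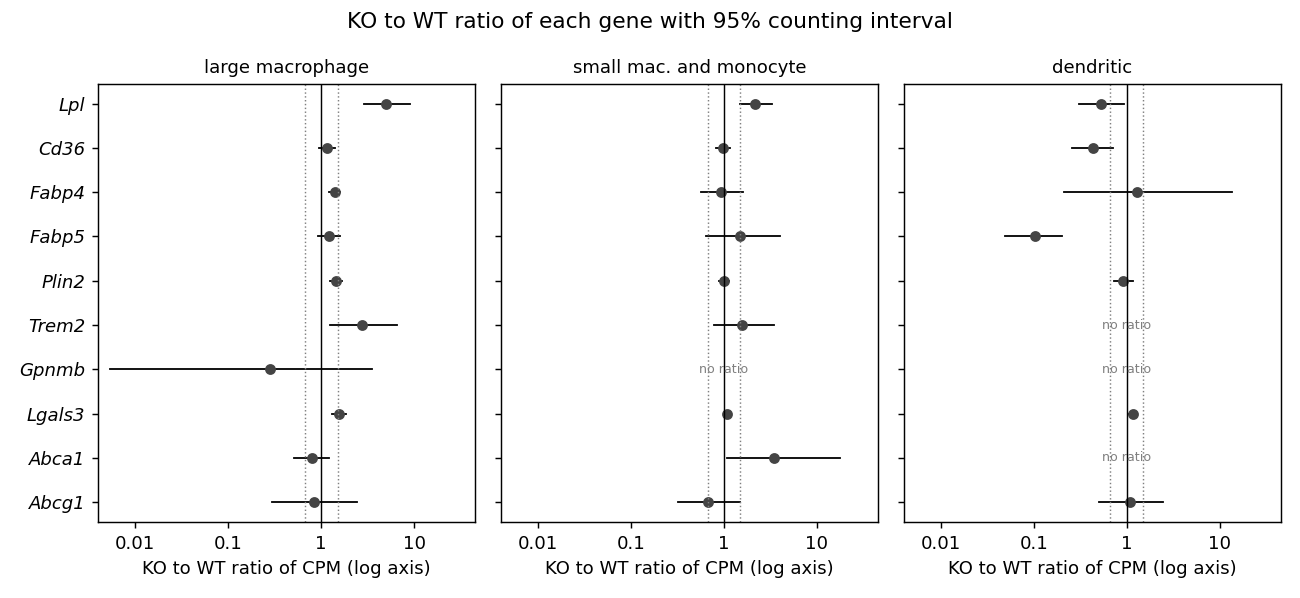
KO to WT ratio of each gene (points, log axis) with its exact 95% interval (lines) in large macrophages, small macrophages and monocytes, and dendritic cells, where dotted lines mark 1.5-fold in each direction and "no ratio" a library at 0 UMIs. Lpl stood at 4.95 and 2.17 in the macrophage panels and at 0.534 in the dendritic panel.

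Trem2, the lipid receptor, had its UMIs in macrophages, apart from 5 KO and 1 WT UMIs in lymphocytes. It was at 49.9 CPM in KO (29 UMIs in 20 barcodes) and 18.4 CPM in WT (9 UMIs in 7 barcodes) large macrophages, a ratio of 2.72 (1.25 to 6.52). Small macrophages and monocytes had 35.6 CPM in KO (45 UMIs) and 22.7 CPM in WT (10 UMIs), a ratio of 1.56 (0.778 to 3.48) whose interval spans 1. Dendritic cells had 0 UMIs in both libraries, which allows up to 2.28 CPM in KO and 4.42 CPM in WT. The ratio in large macrophages lay between 2.18 and 3.43 in each alternative that gave one. After thinning, a UMI was seen in 6 of 77 KO barcodes and 0 of 32 WT barcodes, which allows up to 9.38% in WT.

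Gpnmb, a lysosomal glycoprotein of lipid-laden macrophages, was all but missing at this depth. Large macrophages held 1 KO and 3 WT UMIs, small macrophages and monocytes and dendritic cells 0 in both libraries. No large macrophage held Trem2 and Gpnmb together, among 20 KO and 7 WT barcodes with a Trem2 UMI. With Gpnmb in only 1 KO and 2 WT barcodes of that class, this says little. In small macrophages and monocytes, where 34 KO and 6 WT barcodes had a Trem2 UMI, 0 Gpnmb UMIs made an overlap impossible. Of the large macrophages with Trem2, 11 of 20 KO and 2 of 7 WT barcodes also held Lpl, and all of them held Cd36. Over all large macrophages, Lpl was seen in 34 of 78 KO and 11 of 33 WT barcodes, and Cd36 in 68 and 28. Barcodes with a Trem2 UMI were deeper, with medians of 8062 UMIs in KO and 19477 in WT, against 6964 and 13317 without one. Whether the genes went together beyond these shares was not tested. At these depths a missing UMI does not show that the transcript was absent.

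Lgals3 encodes galectin-3, a lectin that binds glycans of membranes, and was at 104 CPM or more in every class and library. It was at 1476 CPM in KO and 1356 CPM in WT small macrophages and monocytes, a ratio of 1.09 (0.992 to 1.196), and at 1002 CPM in KO and 864 CPM in WT dendritic cells, a ratio of 1.16 (1.05 to 1.28). Large macrophages had less, 602 CPM in KO (350 UMIs) and 390 CPM in WT (191 UMIs), with a ratio of 1.54 (1.29 to 1.85). That ratio was 1.15 without barcodes that held B-cell transcripts or a heavy chain, 1.10 with classes taken from marker UMIs, and 1.22 with barcodes counted alike. Within small macrophages and monocytes it was higher in KO in the monocyte-scored cluster (1640 CPM in KO and 1299 CPM in WT) and lower in KO in the cluster led by Retnla and C1qb (1184 CPM in KO and 1671 CPM in WT).

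Abca1, the exporter that loads cholesterol onto apolipoprotein A-I, had its highest level in large macrophages, at 72.2 CPM in KO (42 UMIs) and 91.8 CPM in WT (45 UMIs), a ratio of 0.787 (0.504 to 1.23). Small macrophages and monocytes had 23.7 CPM in KO (30 UMIs) and 6.82 CPM in WT (3 UMIs), a ratio of 3.48 (1.08 to 17.8). Of these 3 WT UMIs, 2 were in 1 barcode. The ratio ran from 1.04 to 9.39 over the alternatives and was not past 1.5-fold with each library clustered on its own (1.04), without doublet removal (1.47) or without the monocyte-scored cluster (1.40). Dendritic cells held 3 KO and 0 WT UMIs. Abcg1, which exports cholesterol to high-density lipoprotein, was low in each of the 4 classes. Large macrophages had 15.5 CPM in KO and 18.4 CPM in WT from 9 UMIs each. Small macrophages and monocytes had 18.2 CPM in KO (23 UMIs) and 27.3 CPM in WT (12 UMIs), a ratio of 0.667 (0.318 to 1.47). Dendritic cells had 17.5 CPM in KO and 16.2 CPM in WT.

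Counted together, 9 of the 10 genes reached 10 CPM in large macrophages of at least 1 library, and 3 of these (Lpl, Trem2 and Lgals3) were more than 1.5-fold higher in KO and 0 lower. Over all 8305 genes at that level 15.7% were higher and 17.4% lower by that much, and at 50 CPM or more 17.0% passed in either direction. In small macrophages and monocytes 9 genes were measured, 3 higher (Lpl, Trem2 and Abca1) and 1 lower (Abcg1, at the limit), against 17.1% higher and 12.4% lower of 7513 genes, and 13.3% in either direction at 50 CPM. In dendritic cells 6 were measured, 0 higher and 3 lower (Lpl, Cd36 and Fabp5), against 12.7% higher and 10.0% lower of 7246 genes, and 8.77% in either direction at 50 CPM. The median log2 ratio of the measured members was 0.48 in large macrophages, 0.12 in small macrophages and monocytes and -0.51 in dendritic cells, beside 0.02, 0.06 and 0.03 over all genes.

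**Figure D4:**
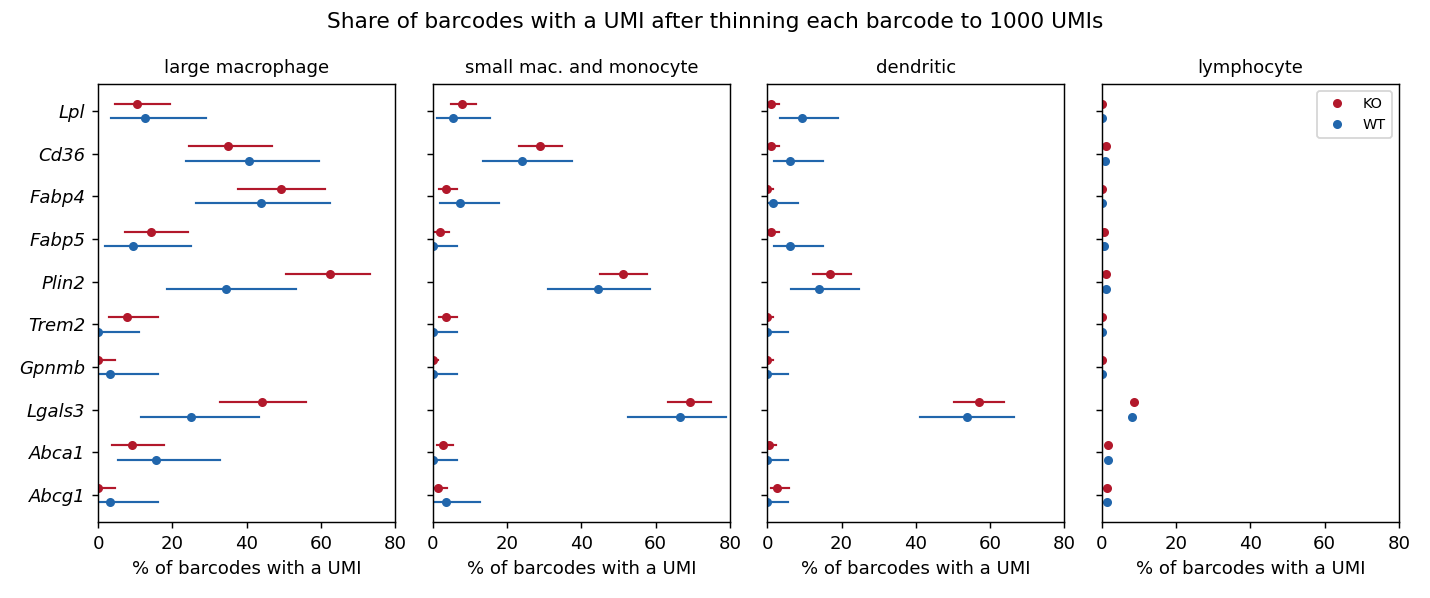
Share of barcodes with a UMI of each gene after thinning to 1000 UMIs, KO in red and WT in blue with exact 95% Clopper-Pearson intervals, in 4 classes. In large macrophages Plin2 was seen in 62.3% of KO and 34.4% of WT barcodes, and Lpl in 10.4% and 12.5%. The KO and WT intervals overlapped for each of these genes.

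Lymphocytes carried part of the set as well. Cd36 was at 15.3 CPM in KO (986 UMIs) and 8.43 CPM in WT (532 UMIs), a ratio of 1.82 (1.63 to 2.02). After thinning the ratio was 1.38 (1.06 to 1.81), no longer past 1.5-fold. Without thinning it was the 1 gene of 5 measured that passed 1.5-fold there, where 0.575% of 7479 genes were higher in KO and 0.495% lower, and 0.504% passed in either direction at 50 CPM. The macrophage gene Lyz2 was also more often seen in KO lymphocytes, with a UMI in 4.69% of KO and 0.901% of WT barcodes after thinning, against 1.27% and 0.925% for Cd36. Lyz2 was at 36.4 CPM in KO and 5.89 CPM in WT lymphocytes. Per 1000 Lyz2 UMIs, lymphocytes held 421 Cd36 UMIs in KO and 1430 in WT, and small macrophages and monocytes 14.7 and 14.4. The part of macrophage transcripts in the Cd36 ratio of lymphocytes was not tested.

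Within B cells Cd36 was at 17.7 CPM in KO and 9.76 CPM in WT, a ratio of 1.81 (1.63 to 2.02), the 1 of 4 measured members past 1.5-fold beside 0.635% of 7246 genes higher and 0.593% lower. The B-cell cluster led by Fcer2a and Cr2 had the highest level among B-cell clusters of over 100 barcodes, 42.5 CPM in KO and 37.8 CPM in WT, with a ratio of 1.12 (0.801 to 1.59). The cluster with the B-1 cell markers Zcwpw1 and Zbtb32 among its leading genes had 9.98 CPM in KO and 5.56 CPM in WT, a ratio of 1.80 (1.40 to 2.30). Lgals3 in B cells was at 121 CPM in KO and 104 CPM in WT, and the same Fcer2a and Cr2 cluster had among the lowest values, 37.8 CPM in KO and 38.5 CPM in WT. Abca1 was at 18.0 CPM in KO and 17.5 CPM in WT B cells, a ratio of 1.03.

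In T cells Fabp5 was at 35.7 CPM in KO and 23.8 CPM in WT, a ratio of 1.501 (1.26 to 1.80), and Plin2 at 36.2 CPM in KO and 24.2 CPM in WT, a ratio of 1.497 (1.26 to 1.79). Fabp5 lay just above the 1.5-fold limit and Plin2 just below it, beside 2.38% of 7786 genes that were higher in KO and 0.848% that were lower. Lgals3 was at 120 CPM in both libraries of T cells, but not in every cluster. In the cluster led by Cd163l1 and Il17a (245 KO and 80 WT barcodes), which also had Tcrg-V6 among its leading genes, Lgals3 was at 277 CPM in KO (214 UMIs) and 934 CPM in WT (438 UMIs), a ratio of 0.296 (0.250 to 0.3496). Il17a itself was at 353 CPM in KO and 921 CPM in WT there, and Plin2 at 142 CPM in KO and 126 CPM in WT. In the cluster with Cd4 and Tnfrsf4 among its leading genes Lgals3 was at 124 CPM in KO and 93.6 CPM in WT, a ratio of 1.33 (1.16 to 1.52), and the cluster led by Ly6c1 and Lef1 held 3 KO and 1 WT Lgals3 UMIs.

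NK cells had lower levels in KO of each of the 3 members that reached 10 CPM. Lgals3 was at 145 CPM in KO (186 UMIs) and 257 CPM in WT (312 UMIs), a ratio of 0.564 (0.468 to 0.679). Plin2 was at 16.4 CPM in KO and 27.2 CPM in WT, a ratio of 0.602 (0.331 to 1.07), and Abcg1 at 17.9 CPM in KO and 30.5 CPM in WT, a ratio of 0.588 (0.334 to 1.02). Over all 8168 genes at that level 6.08% were lower in KO and 8.99% higher. Markers differed in this class as well. The NK receptor gene Ncr1 was at 760 CPM in KO and 1158 CPM in WT, the B-cell gene Cd79a at 204 CPM in KO and 26.4 CPM in WT, the T-cell gene Cd3e at 62.4 CPM in KO and 26.4 CPM in WT, and Lyz2 at 61.6 CPM in KO and 8.24 CPM in WT. Their part in the NK ratios was not tested.

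Other genes of the same pathways were read from 7 lists, whose counts in large macrophages stand beside 15.7% higher and 17.4% lower over all genes at 10 CPM or more. Several of the counts below lie near those shares. In large macrophages, the lipid uptake list had 13 of 17 genes at 10 CPM or more, with 4 higher and 2 lower by 1.5-fold and a median log2 ratio of 0.38. The scavenger receptor Marco was at 68.8 CPM in KO and 18.4 CPM in WT, a ratio of 3.75 (1.79 to 8.78), Msr1, which takes up modified lipoproteins, at 370 CPM in KO and 271 CPM in WT, a ratio of 1.36 (1.09 to 1.70), and Scarb2 at 218 CPM in KO and 165 CPM in WT. The lipid-associated macrophage list had 20 of 26 measured, 6 higher and 0 lower, median 0.36. Emp1 was at 160 CPM in KO and 91.8 CPM in WT, the annexin Anxa5 at 196 CPM in KO and 118 CPM in WT, and Cstb, an inhibitor of cathepsins, at 134 CPM in KO and 81.6 CPM in WT.

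The droplet list had 13 of 21 measured in large macrophages, 4 higher and 1 lower, median 0.34. Pnpla2, the lipase that opens triglyceride breakdown, was at 131 CPM in KO and 67.3 CPM in WT, a ratio of 1.94 (1.27 to 3.02), the cholesterol esterifying enzyme Soat1 at 92.9 CPM in KO and 73.4 CPM in WT, and Bscl2 (seipin) at 108 CPM in KO and 89.7 CPM in WT. Fatty acid oxidation had 16 of 17 measured, 3 higher and 0 lower, median 0.13, with Acaa2 at 119 CPM in KO and 73.4 CPM in WT, Acadm at 67.1 CPM in KO and 46.9 CPM in WT, and Pdk4 at 60.2 CPM in KO and 79.5 CPM in WT. These medians stand beside 0.02 over all genes of large macrophages, and the counts beside the same 15.7% higher and 17.4% lower.

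The other 3 lists had medians between -0.22 and 0.17. Regulators and targets of PPAR, LXR and MITF-TFE had 14 of 17 measured, 2 higher and 1 lower, median 0.07, with Lpcat3, an LXR target, at 67.1 CPM in KO and 36.7 CPM in WT (ratio 1.83, 1.02 to 3.39), Mylip at 53.3 CPM in KO and 44.9 CPM in WT, and the corepressor Ncor1 at 117 CPM in KO and 131 CPM in WT. The efflux list had 9 of 11 measured, 1 higher and 1 lower, median 0.17, with Apoe, the lipid carrier that macrophages secrete, at 10894 CPM in KO and 9136 CPM in WT, Npc2 at 1214 CPM in KO and 1079 CPM in WT, and Osbpl8 at 73.9 CPM in KO and 67.3 CPM in WT. Partners of TREM2 and galectins had 9 of 9 measured, 0 higher and 1 lower, median -0.22. Over all genes 15.7% were higher and 17.4% lower. Of these partners the kinase Syk was at 136 CPM in KO and 206 CPM in WT (ratio 0.659, 0.485 to 0.894), Lgals1 at 51.6 CPM in KO and 69.3 CPM in WT, and Mertk at 53.3 CPM in KO and 71.4 CPM in WT.

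In small macrophages and monocytes the lists had medians of -0.14 for uptake, 0.05 for the lipid-associated program, 0.19 for regulators, 0.05 for droplets, 0.11 for efflux, 0.11 for oxidation and 0.11 for partners, beside 0.06 over all genes, of which 17.1% were higher and 12.4% lower. Of the uptake list 4 of 10 measured genes were higher and 3 lower. Msr1 was at 121 CPM in KO and 50.04 CPM in WT (ratio 2.42, 1.54 to 3.97) and Scarb1, the HDL receptor, at 53.0 CPM in KO and 95.5 CPM in WT (ratio 0.555, 0.372 to 0.836). Apoe was at 3948 CPM in KO and 1774 CPM in WT, a ratio of 2.23 (2.06 to 2.403). It was 3.62 (3.06 to 4.31) in the cluster led by Retnla and C1qb and 1.36 (1.24 to 1.49) in the monocyte-scored cluster, which held 83 KO and 8 WT, and 153 KO and 47 WT, barcodes.

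Of the lipid-associated list in that class 5 of 21 were higher and 0 lower, beside 17.1% and 12.4% of all genes, with Emp1 at 54.6 CPM in KO and 27.3 CPM in WT and the cathepsin Ctsl at 122 CPM in KO and 70.5 CPM in WT. Regulators had 3 higher and 2 lower of 15. The phospholipid transfer protein Pltp was at 1993 CPM in KO and 1447 CPM in WT, Tfeb at 37.2 CPM in KO and 54.6 CPM in WT, and Lpcat3 at 46.7 CPM in KO and 68.2 CPM in WT. Efflux had 3 higher and 1 lower of 9, with Osbpl8 at 70.4 CPM in KO and 45.5 CPM in WT. Partners had 2 higher and 0 lower of 9, with the adaptor Hcst at 51.4 CPM in KO and 25.02 CPM in WT, Lgals1 at 603 CPM in KO and 444 CPM in WT, and Plcg2 at 118 CPM in KO and 159 CPM in WT. Droplet genes had 1 higher and 3 lower of 14, and Plin3, Soat1 and Pnpla2 had ratios of 1.13, 1.12 and 0.948. Oxidation had 0 higher and 1 lower of 12, and Acaa2, Hadha and Slc25a20 had ratios of 1.45, 1.36 and 0.760.

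In dendritic cells the medians were 0.03 for uptake, -0.19 for the lipid-associated program, -0.19 for regulators, -0.17 for droplets, 0.01 for efflux, 0.20 for oxidation and -0.17 for partners, beside 0.03 over all genes. Counts past 1.5-fold were 1 higher and 1 lower of 8, 1 and 2 of 20, 1 and 2 of 10, 3 and 1 of 15, 2 and 0 of 9, 2 and 2 of 13, and 0 and 0 of 8 in that order of lists, beside 12.7% higher and 10.0% lower of all 7246 genes. Pltp was at 855 CPM in KO and 1535 CPM in WT, a ratio of 0.557 (0.512 to 0.607), opposite in direction to its value in small macrophages and monocytes. Psap, the saposin precursor, was at 1883 CPM in KO and 2719 CPM in WT (ratio 0.693, 0.652 to 0.736), and Cpt1a, which admits long-chain fatty acids to mitochondria, at 50.2 CPM in KO and 81.1 CPM in WT (ratio 0.619, 0.426 to 0.902). Acaa2 had a ratio of 0.585 and Acadl of 1.496. Lgals1 was at 384 CPM in KO and 267 CPM in WT. Other genes named by the rule there, Tfeb, Nr1h2, Inpp5d, Itgb2, Npc2, Osbpl8, Bscl2, Pnpla2, Plin3, Scarb2, Lrp1 and Cd68, had ratios between 0.638 (Tfeb) and 1.39 (Bscl2). In lymphocytes 1 gene over all 7 lists, a regulator, passed 1.5-fold and was higher in KO. The lists had 3, 16, 10, 10, 7, 12 and 8 measured genes there, in the same order. Over all 7479 genes of lymphocytes 0.575% were higher and 0.495% lower.

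**Figure D5:**
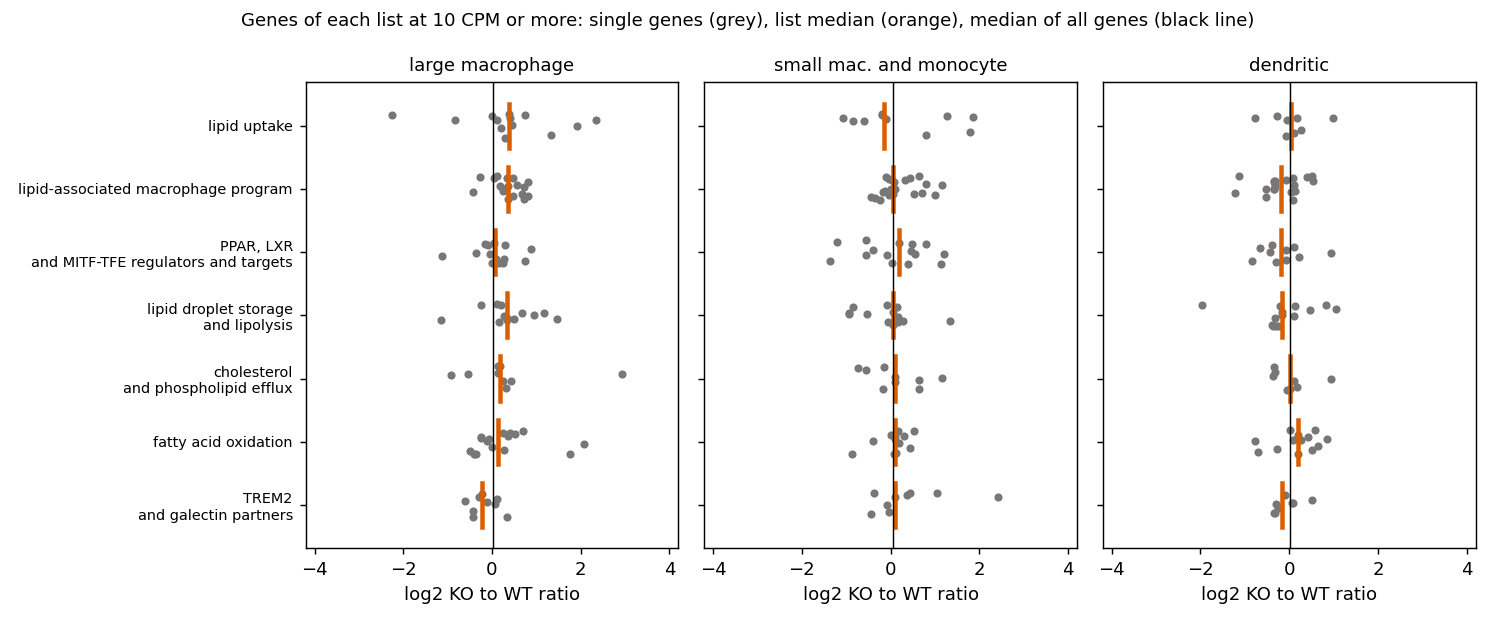
log2 KO to WT ratio of the genes of each list at 10 CPM or more (grey points), with the list median (orange) and the median of all genes (black line), by class; genes at 0 UMIs in a library are not drawn. In large macrophages the medians of the uptake, lipid-associated and droplet lists lay at 0.38, 0.36 and 0.34, right of the line at 0.02.

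The genes most alike to the members in level were sought over 12 points, 6 classes in each of the 2 libraries, among 4660 genes, as a description only, since the points share libraries. Lpl was closest to Akr1a1 (Pearson r 0.988), Myof and Vat1, and Cd36 to Pilra (0.981), Soat1 and Fcgr4. Fabp4 was closest to Serpinb2 (0.986), Thbs1 and Csf3r, and Fabp5 to Hipk2 (0.940), Rgs10 and Emp1. Plin2 was closest to Sap30 (0.986) and Ctsa, Lgals3 to Coro1b (0.979), Cd300c2 and Emp3, and Abca1 to Itsn1 (0.917), Dynlt3 and Nup54. Trem2, Gpnmb and Abcg1 stayed under 50 CPM in each of these classes and were not matched.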

How the data were processed

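The deposited files hold UMI counts per gene and barcode, made by the authors with Cell Ranger (6.0.1 per the submitters' processing notes, 6.1.2 per the file headers), with mm39 as the noted build. Barcodes with under 200 genes or over 10% mitochondrial UMIs were removed. Doublet scores came from Scrublet in scanpy 1.11.5, whose automatic threshold marked 0 barcodes and so had not worked, so the highest scores were removed up to 0.8% per 1000 barcodes (4042 KO and 794 WT). Both libraries were clustered together with leidenalg 0.10.2 (2000 variable genes without the 10 members, 30 components, resolution 1), and myeloid barcodes were clustered again. Clusters were named from marker lists, and those that mixed lists stayed unnamed (495 KO and 399 WT barcodes). UMIs were summed per class and library and given as CPM. A ratio past 1.5-fold in either direction was counted among genes at 10 or 50 CPM in at least 1 library, without immunoglobulin genes. A count of 0 allows up to 3 counts, and intervals come from scipy 1.17.1 at 95%. UMI detection was compared after thinning to 1000 UMIs.

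The members and lists were chosen with earlier results of these data known, and the naming rule for clusters, the second clustering and 4 alternatives were set after the data were seen. The named genes were the members, the 3 genes most correlated with each member at 50 CPM or more, and up to 3 genes per list and class at 50 CPM with the largest ratio. B-cell receptor libraries served to mark heavy-chain barcodes. Alternatives changed doublet removal, filters, clustering, scaling, thinning and weighting. The scripts were tested on simulated data. The targeted gene and some genes that the naming rule selects are not reported here. Python 3.11.15, numpy 2.4.6 and matplotlib 3.10.9 were used.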

Additional observations from a re-analysis of the deposited data

Results flagged for a closer look

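The KO to WT ratios of 4 of the genes lay on opposite sides of 1 in different classes, with intervals that did not span 1. That difference was not itself tested. For Lpl the ratio was 4.95 in large macrophages and 2.17 in small macrophages and monocytes, and 0.534 in dendritic cells. For Cd36 it was 1.81 in B cells and 0.430 in dendritic cells. For Fabp5 it was 1.501 in T cells and 0.103 in dendritic cells. For Lgals3 it was 1.54 in large macrophages, 1.16 in dendritic cells and 1.16 in B cells, and 0.564 in NK cells.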

How the results depend on the processing

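Among ratios of single genes under the alternatives, 408 stayed within the counting interval of the reported value, 62 moved beyond it, and 8 of those reported past 1.5-fold lay on the other side of 1. These 8 were Lpl in large macrophages at 0.831 after thinning, Lpl in small macrophages and monocytes at 0.859 with clusters weighted alike and 0.467 without the monocyte-scored cluster, Fabp5 in dendritic cells at 1.14 with classes from marker UMIs, Abcg1 at 1.12 in small macrophages without the monocyte-scored cluster, and Gpnmb in lymphocytes at 0.721 (Scrublet automatic threshold, and no doublet removal) and 0.525 after thinning. Ratios reported within 1.5-fold crossed 1 as well. Fabp4 in large macrophages ran from 0.812 to 1.44 and was above 1 in 11 of 14 alternatives, Fabp5 there from 0.816 to 1.67 (8 of 14), Lgals3 in small macrophages and monocytes from 0.735 to 1.66 (13 of 16), and Plin2 in dendritic cells from 0.841 to 1.23 (4 of 14). The cause of these crossings was not tested. The tallies of alternatives hold repeats, since the Scrublet automatic threshold marked 0 barcodes and so kept the same barcodes as no doublet removal. In large macrophages, clusters weighted alike gave the reported 537 genes past 1.5-fold and a median shift of 0. These repeats add no separate check.

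The number of members higher in KO in large macrophages was 5 without the barcode richest in the gene (3 reported). It was 2 with the Scrublet automatic threshold, with no doublet removal and with classes taken from marker UMIs. It was also 2 without barcodes that held B-cell transcripts or a heavy chain, and when scaled without immunoglobulin, mitochondrial and ribosomal protein genes. The number lower there was 2 with members among the variable genes and 2 after thinning (0 reported). In small macrophages and monocytes the number higher was 1 with clusters weighted alike and 0 without the monocyte-scored cluster (3 reported). The number lower there (1 reported) was 0 under 10 alternatives, 2 after thinning, with barcodes weighted alike or in the monocyte-scored cluster alone, and 3 without that cluster. In dendritic cells the number higher was 1 after thinning, with clusters weighted alike and with marker UMIs (0 reported), and the number lower was 1 with each library clustered on its own and 1 with marker UMIs (3 reported). In lymphocytes the number higher was 0 after thinning (1 reported). After thinning, the share of all genes past 1.5-fold was also higher in the macrophage and dendritic classes, as given next.

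Genes past 1.5-fold at 50 CPM numbered 537 of 3150 tested in large macrophages. They numbered 2781 of 4183 after thinning, 2755 of 8305 at 10 CPM and 5603 of 12054 with no filter. In small macrophages and monocytes they numbered 404 of 3033. Under the same settings they were 1802 of 3669, 2215 of 7513 and 5611 of 11986, and 635 of 3125 with clusters weighted alike. In dendritic cells they numbered 241 of 2749. Under the same settings they were 1340 of 3015, 1648 of 7246 and 5422 of 12209, and 404 of 2860 with clusters weighted alike. In lymphocytes they numbered 14 of 2779, and 29 of 3880 scaled without immunoglobulin, mitochondrial and ribosomal protein genes. They were 22 of 3102 there with clusters weighted alike, 80 of 7479 at 10 CPM and 4808 of 18284 with no filter. The median over all genes shifted by over 0.1 only in small macrophages and monocytes, by -0.14 on the log2 scale after thinning and 0.10 with no filter. No paired analysis was possible because each genotype has 1 library, and for the same reason no replicate could be left out. Depth limits the low genes most: Gpnmb, Abcg1, Trem2 and Abca1 rest on 45 UMIs or fewer per library in any macrophage or dendritic class.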
